A study of Sus scrofa with 24 samples.

Results

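ZAR1L and C4H8orf37 are 2 genes that were picked because their liver signal was lower in pigs of a line selected for high residual feed intake than in pigs of a line selected for a low one. Residual feed intake (RFI) is the feed an animal eats beyond what its growth and maintenance predict, so a low RFI pig eats less than predicted. All probes on the array that name either gene were taken, 3 for ZAR1L and 3 for C4H8orf37. Of the 43603 probes on the array, 12283 had 1 gene symbol, which gave 5487 named genes. The study took liver from 24 pigs (Sus scrofa) that weighed 115 kg and measured its RNA with 1 single-colour Agilent array per pig. There were 3 groups of 8 pigs: restricted high RFI, in which pigs of the high RFI line received as much feed as the low RFI line ate, high RFI fed ad libitum, and low RFI fed ad libitum. Both high RFI groups come from 1 selected line and the low RFI group from the other, and no unselected line is among the samples used here, so a difference between lines cannot be assigned to either line.

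ZAR1L encodes a relative of ZAR1, the zygote arrest protein, and both belong to a small family of zinc-finger proteins that bind messenger RNA and are known for storing and silencing maternal transcripts in oocytes. C4H8orf37 is the pig counterpart of human C8orf37, also called CFAP418, which encodes a protein found at the base of the cilium in photoreceptor cells. Mutations of the human gene cause inherited degeneration of the retina. In liver, primary cilia are borne by cholangiocytes, the cells that line the bile ducts, while hepatocytes lack them.

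The sequences of the 6 probes are given as the deposited files list them, because 2 of the ZAR1L probes overlap and so do not measure the gene independently. Probes A_72_P452533 and A_72_P671850 share 56 bases at an offset of 4 bases and differ at 1 base within them, which is T28G from the first probe to the second, counted from 1 at the 5′ end of A_72_P452533. That base is in capitals.

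A_72_P671850: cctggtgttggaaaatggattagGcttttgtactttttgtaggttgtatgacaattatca
A_72_P452533: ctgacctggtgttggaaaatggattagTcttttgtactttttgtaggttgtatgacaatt
A_72_P118481: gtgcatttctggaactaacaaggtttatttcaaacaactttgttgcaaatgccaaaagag

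The 3 probes of C4H8orf37 share no such overlap with each other, so they sample different stretches of sequence. A_72_P040846 was named only through a pig sequence cluster annotated as a partial match to the rat protein, and it matched no accession or symbol of the reference gene table, which makes its assignment the least certain of the 6.

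A_72_P525152: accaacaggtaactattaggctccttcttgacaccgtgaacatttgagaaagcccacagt
A_72_P107826: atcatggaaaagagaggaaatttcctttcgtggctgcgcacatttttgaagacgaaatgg
A_72_P040846: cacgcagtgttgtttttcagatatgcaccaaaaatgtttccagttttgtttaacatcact

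No other probe on the array shared a run of 25 or more bases with any of the 6, apart from the overlapping ZAR1L pair with each other.

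All levels below are log2 of the scanner's processed signal minus the 75th percentile of the same array, so a value of 0 is a signal as bright as that percentile and 1 unit is a doubling. Across the 24 arrays, 63.2% to 72.7% of spots were well above background, with means of 67.4% ± 2.81 in restricted high RFI pigs, 70.2% ± 2.28 in high RFI pigs and 67.8% ± 2.77 in low RFI pigs (SD, n = 8 each). Log2 levels of any pair of arrays correlated at 0.971 to 0.991. Hepatocyte markers including albumin (ALB), transthyretin (TTR) and transferrin (TF) were well above background in all 24 pigs, and the summed linear level of the 8 markers measured ranged between 2395 and 2699 in restricted high RFI pigs, 2364 and 2875 in high RFI pigs, and 2527 and 2679 in low RFI pigs, relative to the 75th percentile. A probe was tested where at least 6 of 8 arrays in 1 group or more showed it well above background, and a difference was called at a limma p adjusted over all 29665 such probes under 0.05. In a bulk liver sample, fewer cells of a type and less RNA per cell cannot be told apart.

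ZAR1L was a dim transcript in this liver RNA. On A_72_P671850, its brightest probe, levels were lowest at -6.45, median -5.50 and highest at -4.84 in restricted high RFI pigs, and -5.45, -5.13 and -4.60 in high RFI pigs, against -4.64, -2.85 and -2.05 in low RFI pigs. The corresponding processed signals had medians of 9.57, 12.7 and 64.2 units in the restricted high, high and low RFI groups, where the median negative-control spot lay between 1.72 and 3.61 units. All low RFI pigs but pig 4 were above every pig of the high RFI line, and low RFI pig 4, at -4.64, lay below 1 of them, high RFI pig 1 at -4.60. This probe was well above background in 1 of 8 restricted high RFI pigs, 6 of 8 high RFI pigs and 8 of 8 low RFI pigs.

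**Figure D1:**
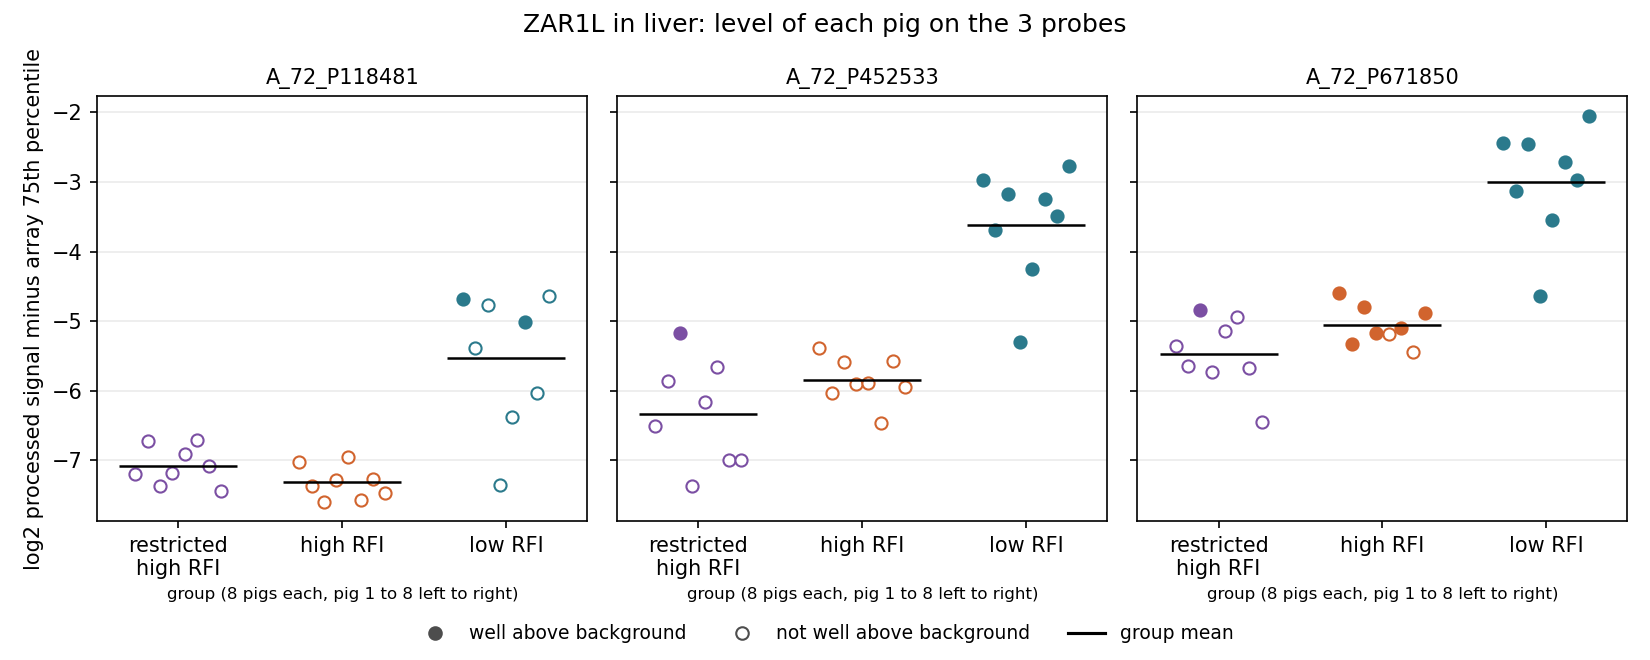
Level of ZAR1L on its 3 probes in each pig, as log2 processed signal minus the array's 75th percentile, with a line at each group's mean. Filled points were well above background and open points were not; on A_72_P671850 low RFI pig 4, at -4.64, sits beside the topmost high RFI pig, and the other low RFI pigs sit between -3.54 and -2.05.

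Group means on this probe were -5.47 ± 0.52 in restricted high RFI pigs, -5.06 ± 0.29 in high RFI pigs and -2.99 ± 0.81 in low RFI pigs (SD, n = 8 each). The difference between high and low RFI pigs was -2.07 (SE 0.27), which is 4.20-fold lower in high RFI pigs. Between restricted high and low RFI pigs it was -2.48 (SE 0.27), or 5.57-fold lower by the measured means. With spots of the restricted high RFI group set no lower than the lowest signal well above background on their array, that group, measured in 1 of 8 pigs, was at least 4.44-fold lower than low RFI pigs. With normexp background correction the 2 differences were -0.83 and -0.996. Because the gene was chosen on these differences, they are given as a description without a test.

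The overlapping probe A_72_P452533 gave the same picture at lower signal. Its levels were lowest at -7.38, median -6.33 and highest at -5.17 in restricted high RFI pigs, and -6.46, -5.89 and -5.39 in high RFI pigs, against -5.30, -3.36 and -2.77 in low RFI pigs. High and low RFI pigs did not overlap, by a margin of 0.08 between high RFI pig 1 and low RFI pig 4. How often other tested probes lacked overlap was not computed, and the gene was picked on this contrast. It was well above background in 1 of 8 restricted high RFI pigs, 0 of 8 high RFI pigs and 8 of 8 low RFI pigs, so the high RFI group has only an upper bound. Set against the lowest signal well above background on each array, high RFI pigs were at least 3.73-fold lower than low RFI pigs, and the measured means were -5.85 ± 0.33 in high RFI pigs and -3.61 ± 0.82 in low RFI pigs (SD, n = 8 each). Restricted high minus low RFI was -2.73 (SE 0.32) by the measured values, with 1 restricted high RFI pig well above background, and at least 2.98-fold lower in restricted high RFI pigs when bounded in the same way.

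A_72_P118481, which lies outside the overlap, was near background throughout. It was well above background in 0 of 8 restricted high RFI pigs, 0 of 8 high RFI pigs and 2 of 8 low RFI pigs, and so was not tested. Its measured levels had medians of -7.13 in restricted high RFI pigs and -7.33 in high RFI pigs, against -5.21 in low RFI pigs. With only 2 of 8 low RFI pigs well above background, the low RFI mean is itself uncertain. No fold, not even a smallest one, can be given for high or restricted high against low RFI pigs on this probe.

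Low RFI pigs differed among themselves in ZAR1L in nearly the same order on every probe. Across the 8 low RFI pigs the 2 overlapping probes correlated at r = 0.993 (rho = 1). The exact two-sided permutation p for r was 2.48e-05, the smallest that 8 pigs can give here, and 0.000446 after adjustment over 18 such correlations. These 2 probes share 56 bases, so they are not independent measures of that order. A_72_P118481 correlated with A_72_P671850 at r = 0.957 (rho = 0.976) in those pigs, with an adjusted exact permutation p of 0.00257. It was well above background in only 2 of the 8. Without the 2 pigs farthest from the median of the first-named probe, these values became 0.976 and 0.809. Low RFI pigs 4 and 5 were the lowest and pigs 1 and 8 the highest on all 3 probes.

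Within the high RFI line the overlapping pair correlated at r = 0.757 (rho = 0.905) in restricted high RFI pigs, with an adjusted exact permutation p of 0.0544 for r and 0.0164 for rho, and at r = 0.363 (rho = 0.214) in high RFI pigs, with an adjusted exact permutation p of 0.428 for r. Most of these spots were not well above background, and the difference between groups in this correlation was not tested.

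Feed restriction within the high RFI line was tested, since the genes were not chosen on it directly. Both of its groups were set against low RFI pigs in that choice, so the test is not wholly free of it. ZAR1L on A_72_P671850 was at -0.41 (SE 0.27) for restricted high minus high RFI, at a limma adjusted p of 0.955, with 1 and 6 of 8 pigs well above background in the 2 groups. No test of feed restriction is drawn from A_72_P452533, on which 1 restricted high RFI pig and 0 high RFI pigs were well above background. The groups overlapped on A_72_P671850. Across the array, no probe passed in this comparison (0% of 29665), while 1575 had an unadjusted p under 0.05. On A_72_P671850 the difference was thus not called, which does not show that the restricted high and high RFI groups are equal. With only these 2 groups in the fit it was -0.41 (SE 0.20). The ZAR1L mean was highest in low RFI pigs on all 3 probes. Between the groups of the high RFI line the order is not settled, since the restricted high RFI mean was the lower one on 2 probes and, at -7.08 against -7.32 in high RFI pigs, the higher one on A_72_P118481, and most of these spots were not well above background.

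C4H8orf37 was brighter than background in nearly all pigs. On A_72_P525152, its brightest probe, levels were lowest at -2.36, median -1.59 and highest at -0.87 in restricted high RFI pigs, and -1.75, -1.59 and -1.18 in high RFI pigs, against -1.30, -0.40 and -0.02 in low RFI pigs. The groups overlapped at their edges: low RFI pigs 7 and 1, at -1.30 and -1.07, lay below restricted high RFI pig 8 at -0.87, and low RFI pig 7 lay below high RFI pig 7. All 24 pigs were well above background on this probe.

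**Figure D2:**
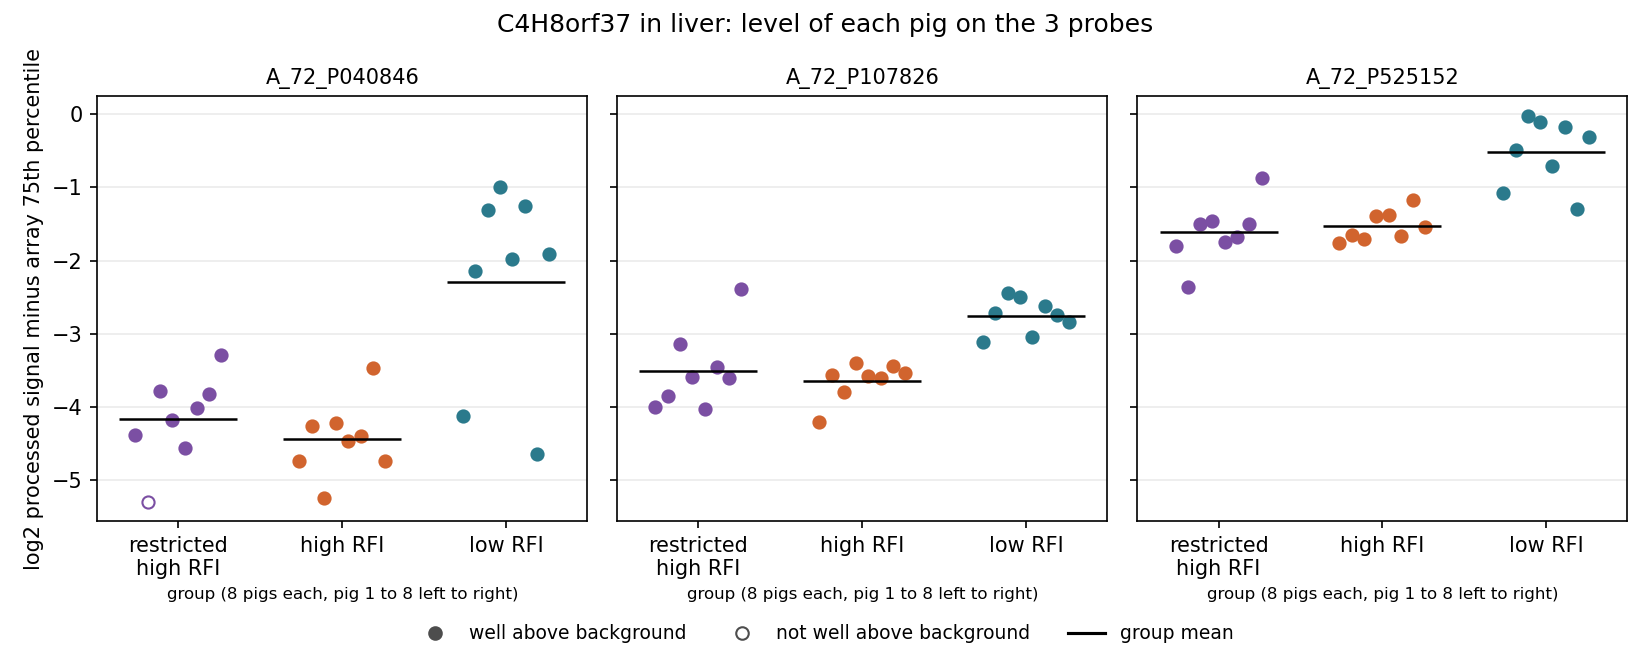
Level of C4H8orf37 on its 3 probes in each pig, as log2 processed signal minus the array's 75th percentile, with a line at each group's mean; filled points were well above background and the open point was not. On A_72_P040846 low RFI pigs 1 and 7 sit at -4.12 and -4.64 with the high RFI line, while the other low RFI pigs sit between -2.15 and -0.999.

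Means on A_72_P525152 were -1.61 ± 0.42 in restricted high RFI pigs, -1.53 ± 0.20 in high RFI pigs and -0.52 ± 0.47 in low RFI pigs (SD, n = 8 each). The difference of high minus low RFI pigs was -1.01 (SE 0.18), 2.01-fold lower in high RFI pigs, and that of restricted high minus low RFI pigs was -1.09 (SE 0.18), 2.13-fold lower in restricted high RFI pigs. These too are descriptions of the values on which the gene was picked.

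On A_72_P107826 the groups were closer and tighter. Levels were lowest at -4.02, median -3.59 and highest at -2.39 in restricted high RFI pigs, and -4.20, -3.57 and -3.39 in high RFI pigs, against -3.11, -2.73 and -2.44 in low RFI pigs. High and low RFI pigs did not overlap, with a gap of 0.28 between them. The gene was picked on this contrast and the share of all tested probes without overlap was not computed, so nothing is read from the gap. Restricted high RFI pig 8, at -2.39, was above every low RFI pig, and the other restricted high RFI pigs were at -3.14 or below. The differences were -0.89 (SE 0.18) for high minus low RFI and -0.76 (SE 0.18) for restricted high minus low RFI.

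The least certain probe, A_72_P040846, had the widest spread. Its levels were lowest at -5.29, median -4.09 and highest at -3.29 in restricted high RFI pigs, and -5.24, -4.42 and -3.47 in high RFI pigs, against -4.64, -1.94 and -0.999 in low RFI pigs. In the low RFI group 6 pigs lay between -2.15 and -0.999, and 2 pigs, 1 and 7, at -4.12 and -4.64, inside the range of the high RFI line. The differences were -2.14 (SE 0.43) for high minus low RFI and -1.87 (SE 0.43) for restricted high minus low RFI.

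Low RFI pigs 1 and 7 were also the lowest of their group on A_72_P525152. On A_72_P107826 the lowest were pigs 1 and 5, and pig 7, at -2.75, was near the group's median of -2.73. Across low RFI pigs A_72_P040846 and A_72_P525152 correlated at r = 0.959 (rho = 0.905), with an adjusted exact permutation p of 0.00257 for r, and across restricted high RFI pigs at r = 0.944 (rho = 0.833), with an adjusted exact permutation p of 0.00848 for r. Without the 2 pigs farthest from the median these became 0.831 and 0.71. In high RFI pigs the same probes correlated at r = 0.770, with an adjusted exact permutation p of 0.0544, and at 0.364 without such 2 pigs. A_72_P040846 and A_72_P107826 correlated less closely, at r = 0.791 in restricted high, 0.563 in high and 0.575 in low RFI pigs. The adjusted exact permutation p values were 0.0544, 0.240 and 0.189, so the order of the pigs was not the same on all 3 probes. Restricted high RFI pig 8 was the highest of its group on all 3 probes of C4H8orf37 and the lowest of its group on 2 of the 3 probes of ZAR1L.

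Feed restriction showed no called difference in C4H8orf37 either. Restricted high minus high RFI was -0.08 (SE 0.18) on A_72_P525152, 0.13 (SE 0.18) on A_72_P107826 and 0.27 (SE 0.43) on A_72_P040846, with limma adjusted p values of 0.991, 0.981 and 0.985. The 2 probes with positive differences and the 1 with a negative difference leave the order of the high RFI line's groups unsettled, while low RFI had the highest mean on all 3.

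As to calls, all 5 tested probes of the 2 genes passed the adjusted threshold as lower in high than in low RFI pigs, where 0.152% of all tested probes passed in either direction and 0.0742% as lower. In restricted high against low RFI pigs, 3 of the 5 passed as lower, where 0.276% of all tested probes passed in either direction and 0.111% as lower. The 2 that did not pass were A_72_P107826 and A_72_P040846 of C4H8orf37. Since the genes were chosen on these contrasts, nothing is read from those counts.

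The arrays lay on 6 slides read on 2 scan days, and every slide held all 3 groups, with 1 or 2 pigs of each. On A_72_P671850, high minus low RFI was below 0 on 6 of 6 slides, between -3.20 and -1.12, and was -2.21 and -1.93 within the 2 scan days. On A_72_P525152 it was also below 0 on 6 of 6 slides, between -1.56 and -0.35, and was -0.50 within one scan day and -1.32 within the other. The scan day with the smaller difference held 4 high RFI pigs and 3 low RFI pigs, among them low RFI pigs 1 and 7. On A_72_P040846 it was below 0 on 5 of 6 slides, and its value was -0.75 within the scan day of low RFI pigs 1 and 7 and -3.02 within the other. The part of the scan day in these values was not tested.

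**Figure D3:**
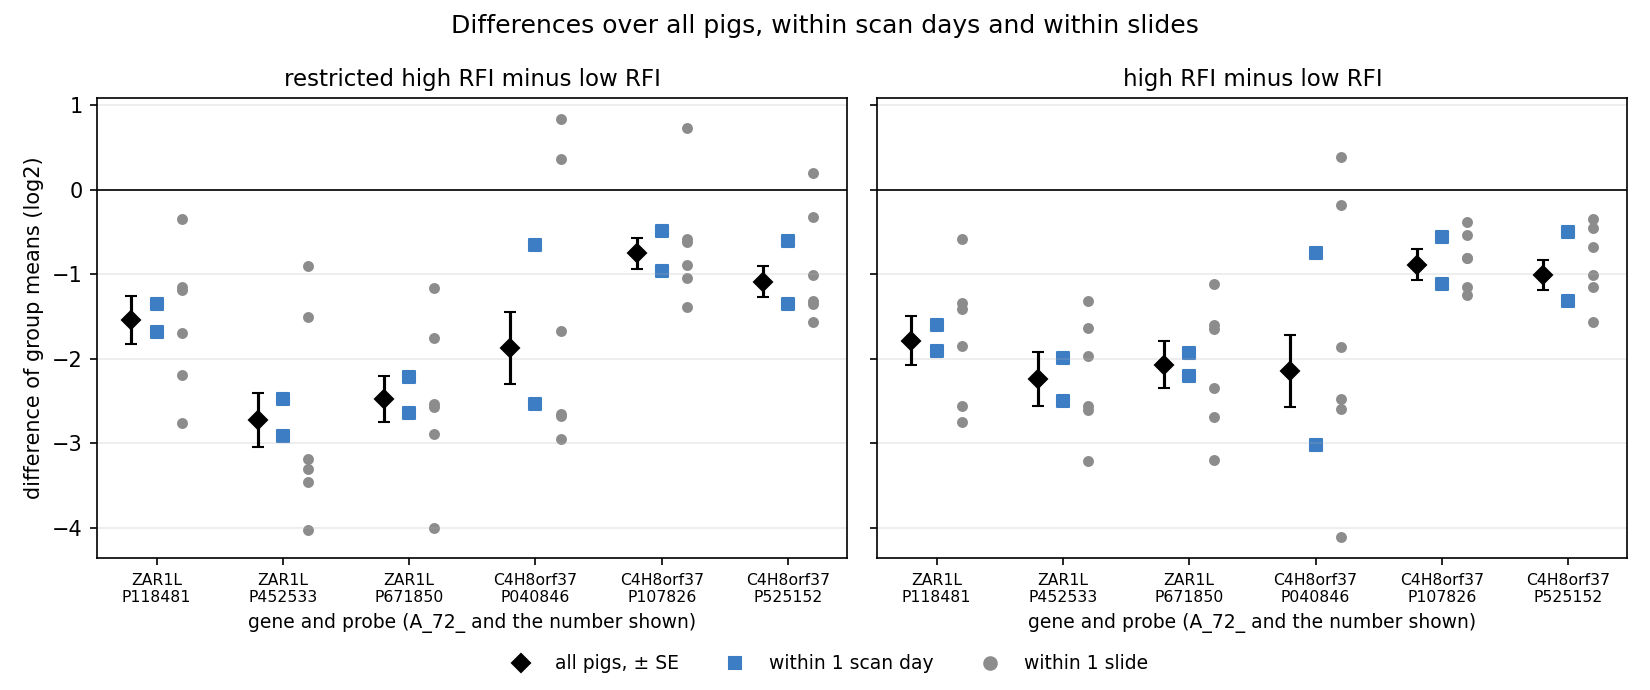
Difference of group means in log2 for each probe, restricted high RFI minus low RFI in the left panel and high RFI minus low RFI in the right panel. Black diamonds are all pigs with their SE, blue squares are values within 1 scan day and grey points are values within 1 slide; the 3 ZAR1L probes lie below 0 on every slide in both panels, and some slides of C4H8orf37 lie above 0.

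For restricted high minus low RFI, A_72_P671850 was below 0 on 6 of 6 slides, between -4.00 and -1.16. A_72_P525152 was below 0 on 5 of 6 slides and reached 0.20 on the slide that held restricted high RFI pig 8 and low RFI pig 1. Within scan days it was -1.35 and -0.61.

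The 2 genes were set against each other pig by pig within each group. ZAR1L on A_72_P671850 and C4H8orf37 on A_72_P525152 correlated at r = -0.45 (rho = -0.40) in restricted high RFI pigs, with exact two-sided permutation p values of 0.247 and 0.327. In high RFI pigs they correlated at r = -0.72 (rho = -0.81), with exact permutation p values of 0.0458 and 0.0218. In low RFI pigs they correlated at r = -0.13 (rho = -0.02), with exact permutation p values of 0.776 and 0.977. After adjustment over the 3 groups the smallest exact permutation p was 0.137 for r and 0.0653 for rho, so none passed. Without the 2 pigs farthest from the median of ZAR1L, r was 0.03 in restricted high RFI pigs, -0.49 in high RFI pigs and 0.21 in low RFI pigs. Low RFI pig 4, the lowest of its group for ZAR1L, was the second highest for C4H8orf37, and low RFI pigs 1 and 7, the lowest for C4H8orf37, were at -2.44 and -2.98 for ZAR1L.

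**Figure D4:**
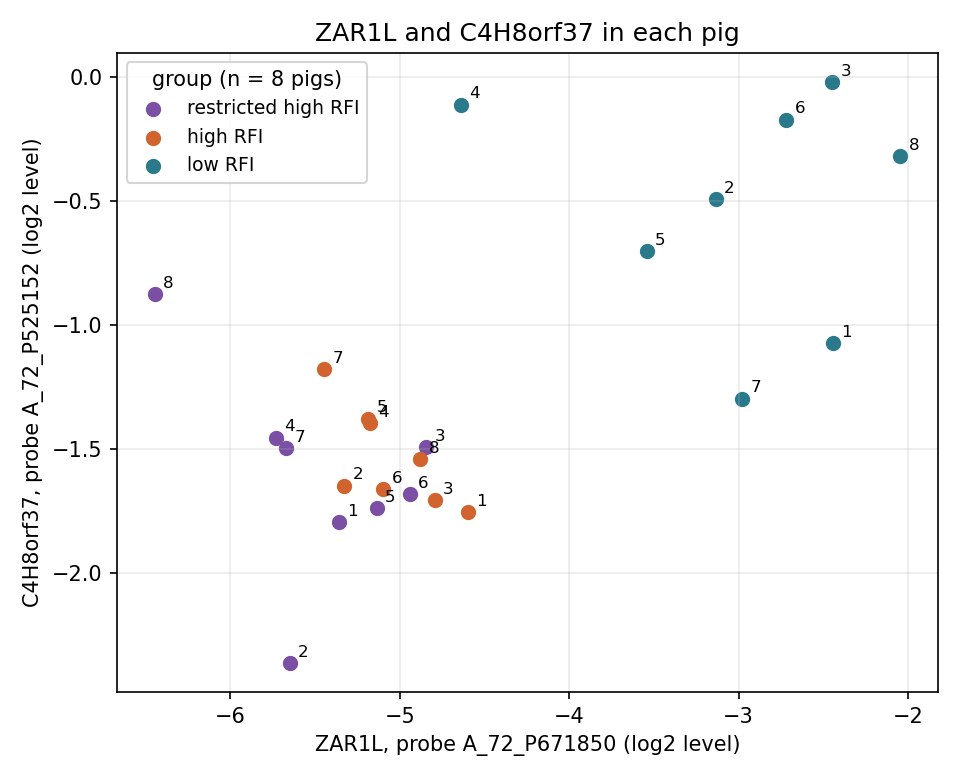
Level of ZAR1L (x axis, probe A_72_P671850) against that of C4H8orf37 (y axis, probe A_72_P525152) in each pig, both as log2 processed signal minus the array's 75th percentile, with pig numbers beside the points. Low RFI pigs are spread to the right and top, and pig 4 is low in ZAR1L only while pigs 1 and 7 are low in C4H8orf37 only among their group.

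Genes beside the 2 on their chromosomes were examined, taking the 5 nearest protein-coding genes on each side in the RefSeq gene table for the pig. Of the 20 neighbours, 10 had a probe, with 28 probes in all, many of them repeats for SDC2 and UQCRB. None of the 28 was called in any of the 3 comparisons by limma. Of all tested probes, 0.152%, 0% and 0.276% were called in high minus low, restricted high minus high and restricted high minus low RFI. The absence of calls among 28 is near those shares, so nothing is read from it. An unadjusted limma p under 0.05 was seen for 5, 5 and 4 of the 28 in high minus low, restricted high minus high and restricted high minus low RFI. Over all 29665 tested probes these counts were 2844, 1575 and 3781. The differences of the 28 for high minus low RFI had a median of -0.04, between -0.41 and 0.999. BRCA2, the gene next to ZAR1L on one side, and GDF6 and PLEKHF2, the genes next to C4H8orf37, had no probe matched by name and are not analysed here.

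**Figure D5:**
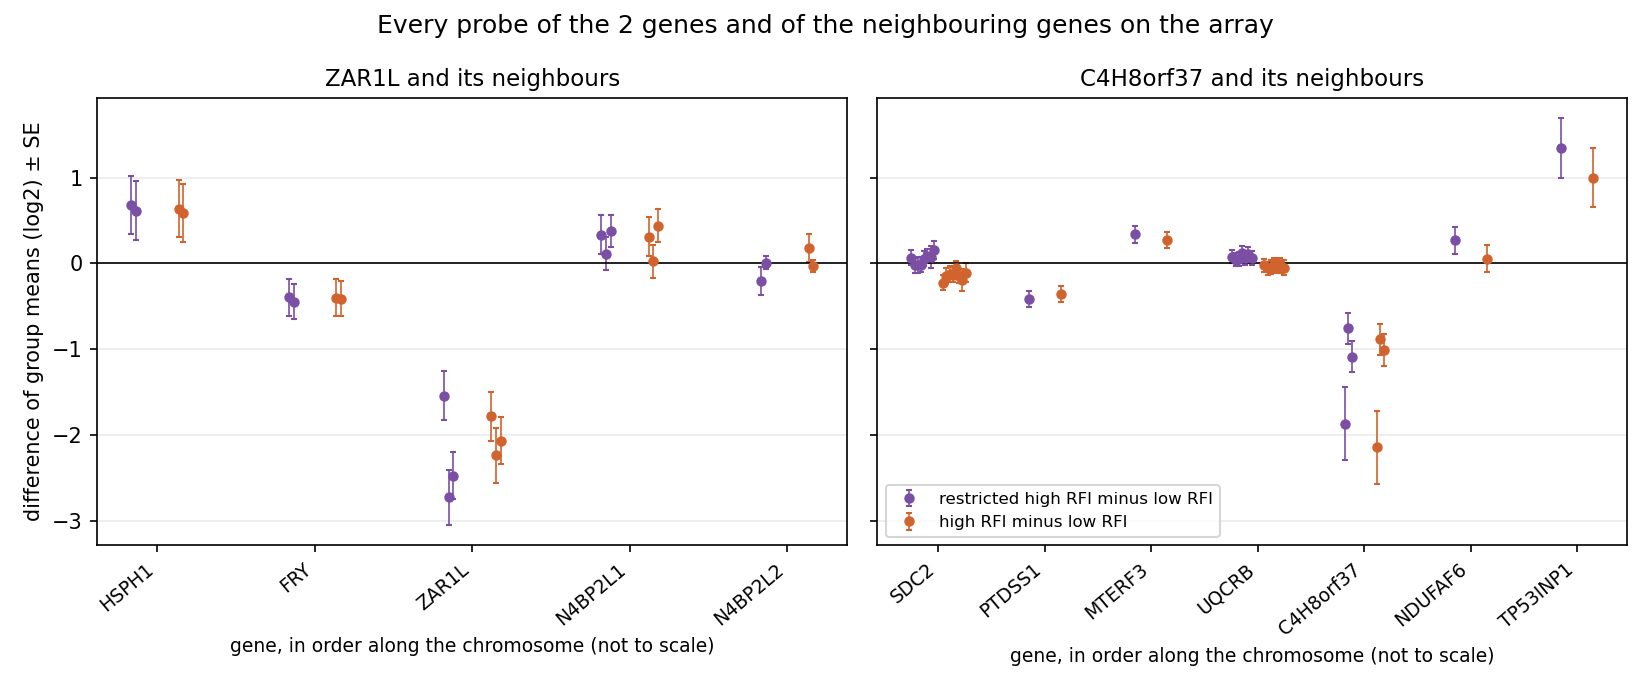
Difference of group means in log2 with SE for every probe of ZAR1L (left panel), C4H8orf37 (right panel) and their neighbouring genes, in chromosome order and not to scale; purple is restricted high RFI minus low RFI and orange is high RFI minus low RFI. The probes of the 2 genes lie between -2.73 and -0.76, and those of the neighbours between -0.45 and 1.35.

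Among the neighbours of ZAR1L, HSPH1, a heat shock protein of the HSP110 family, had differences of 0.59 (SE 0.34) and 0.64 (SE 0.33) on its 2 probes for high minus low RFI, with limma adjusted p values of 0.615 and 0.568. FRY, a large scaffold protein, had -0.40 (SE 0.21) and -0.41 (SE 0.20), with limma adjusted p values of 0.574 and 0.527. N4BP2L1 on its 3 probes ranged between 0.03 and 0.44, and N4BP2L2 was at 0.18 and -0.03. The 4 neighbours of ZAR1L on the array thus gave values in both directions.

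Among the neighbours of C4H8orf37, TP53INP1, a stress-induced protein that acts in autophagy and with p53, had the largest value and in the opposite direction. It averaged 0.52 in restricted high RFI pigs and 0.17 in high RFI pigs, against -0.83 in low RFI pigs. The difference was 1.35 (SE 0.35) for restricted high minus low RFI, with a limma adjusted p of 0.0879, and 0.999 (SE 0.35) for high minus low RFI, with a limma adjusted p of 0.317. PTDSS1, which makes phosphatidylserine, had -0.36 (SE 0.09) for high minus low RFI, with a limma adjusted p of 0.146, and -0.42 (SE 0.09) for restricted high minus low RFI, with a limma adjusted p of 0.0613. MTERF3, a mitochondrial transcription factor, had 0.28 (SE 0.09) for high minus low RFI, with a limma adjusted p of 0.313. The 7 probes of UQCRB, a subunit of respiratory complex III, lay between -0.06 and -0.02, and the 8 probes of SDC2, a heparan sulfate proteoglycan, between -0.23 and -0.06. NDUFAF6, an assembly factor of respiratory complex I, was at 0.06 (SE 0.16). For restricted high minus high RFI the SDC2 probes lay between 0.11 and 0.29, with 4 of them at an unadjusted limma p under 0.05. The smallest limma adjusted p among them was 0.693.

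Gene lists were examined as well, with the brightest probe standing for each gene. They held egg and oocyte, mRNA repression and cilium genes, and also homologous recombination genes and markers of cell types, which share no role with the 2. Of the 68 list genes that were tested over 12 lists, limma called none in any of the 3 comparisons. Of all tested probes, 0.152%, 0% and 0.276% were called in high minus low, restricted high minus high and restricted high minus low RFI. In the same order, 6, 3 and 9 of the list genes had an unadjusted limma p under 0.05. Over all 29665 tested probes these counts were 2844, 1575 and 3781. The median difference over all 4471 named genes tested was -0.01 for high minus low RFI. ZAR1 itself, the better known member of the ZAR1L family, was close to background, at -4.89 in restricted high RFI pigs, -4.75 in high RFI pigs and -4.99 in low RFI pigs, with a difference of 0.24 (SE 0.22) for high minus low RFI and a limma adjusted p of 0.77.

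Other egg and oocyte genes ranged between undetected and detected in every pig. Of the 12 on the array, ZP3, ZP4 (both of the egg coat), NLRP5, DDX4 and KPNA7 were well above background in 0 of 24 pigs, and GDF9, OOEP and NPM2 in all 24. The 5 that were tested had a median difference of -0.13 for high minus low RFI. The summed linear level of the 12 lay between 0.524 and 0.872 in restricted high RFI pigs, 0.493 and 0.778 in high RFI pigs, and 0.649 and 1.01 in low RFI pigs, and its part in the ZAR1L values was not tested. NPM2, a histone chaperone of the egg, averaged -3.34 in restricted high RFI pigs and -3.47 in high RFI pigs, against -2.09 in low RFI pigs, a difference of -1.37 (SE 0.42) for high minus low RFI with a limma adjusted p of 0.237. GDF9, a growth factor of the oocyte, had -0.28 (SE 0.13), with a limma adjusted p of 0.486. Of the 8 genes tested that act in cytoplasmic mRNA repression, PABPC1L, a poly(A)-binding protein, had 0.25 (SE 0.11) for high minus low RFI, with a limma adjusted p of 0.465, and the list's median was -0.02. CPEB4 and CPEB1, which bind the cytoplasmic polyadenylation element of messenger RNAs, had 0.19 (SE 0.15) and -0.45 (SE 0.25).

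Genes of the cilium's base were measured in part. Of 8 tested genes of the BBSome, the basal body and the transition zone, 7 had a negative difference for high minus low RFI, with a median of -0.11, and none was called. CEP290, a scaffold of the transition zone, had -0.30 (SE 0.10), with a limma adjusted p of 0.337, TMEM67 had -0.31 (SE 0.16) and TCTN2 had -0.19 (SE 0.10). The 2 tested genes of intraflagellar transport, IFT52 and IFT81, had -0.05 (SE 0.08) and 0.02 (SE 0.13). The 6 tested homologous recombination genes had a median of 0.11, with XRCC2 at 0.50 (SE 0.30), BRCA1 at 0.17 (SE 0.13) and FANCI at 0.08 (SE 0.07).

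Markers of liver cell types were looked at beside the 2 genes. Cholangiocyte markers had a summed linear level between 3.16 and 8.41 in restricted high RFI pigs, 3.35 and 7.77 in high RFI pigs, and 3.56 and 6.77 in low RFI pigs, and the 6 tested had a median difference of -0.23 for high minus low RFI, with EPCAM at -0.20 (SE 0.18) and SPP1 at 0.30 (SE 0.27). Of 8 stellate cell and fibroblast markers, 7 had a negative difference for high minus low RFI, with a median of -0.23, and their summed level lay between 29.2 and 62.8 in restricted high RFI pigs, 32.5 and 63.4 in high RFI pigs, and 37.5 and 74.4 in low RFI pigs. RGS5, a pericyte marker, had -1.10 (SE 0.30), with a limma adjusted p of 0.162, COL1A2, a collagen chain, had -0.54 (SE 0.21) and DES had -0.16 (SE 0.11). For restricted high minus low RFI the median of the 8 was -0.46, with 7 negative and 3 at an unadjusted p under 0.05, RGS5 at -1.28 (SE 0.30, limma adjusted p 0.0698) and COL1A2 at -0.84 (SE 0.21, limma adjusted p 0.0848). The cholangiocyte median was 0.20 in that comparison. The part of these markers in the ZAR1L and C4H8orf37 values was not tested.

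For the remaining lists the median difference for high minus low RFI was 0.03 over 8 hepatocyte markers, with TF at 0.14, CYP2E1 at 0.08 and APOB at 0.14. It was -0.15 over 7 endothelial markers, with ENG at -0.25, TEK at -0.20 and CDH5 at -0.15. It was 0.17 over 4 macrophage markers, with CD163 at 0.22, CD14 at -0.12 and AIF1 at 0.17, and 0.15 over 5 lymphocyte markers, with CD8A at 0.15, CD4 at 0.32 and CD2 at 0.16.

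The probes whose levels ran most like those of the 2 genes were sought over the 24 pigs, among 29058 tested probes with no missing spot. These values are descriptions, and levels ranked over all pigs carry the difference between lines with them. For ZAR1L on A_72_P671850, the other overlapping probe ranked 1 with a Spearman rho of 0.898, and 13 of the 20 most alike probes had no gene name. The 5 named genes most alike were FAM212B (0.829), COQ3 (0.812), PTDSS1 (0.802), POLR3K (0.799) and C14H1orf198 (0.786). COQ3, a methyltransferase of coenzyme Q synthesis, averaged 1.67 in restricted high RFI pigs and 1.80 in high RFI pigs, against 2.34 in low RFI pigs. On A_72_P452533 the 5 were RPS21 (0.801), PTDSS1 (0.768), EML4 (0.763), COQ3 (0.758) and FAM212B (0.753).

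With each group's mean taken out, the Pearson r of the deviations over the same 24 pigs was highest for SARS (0.741), a tRNA synthetase, FAM212B (0.735), SHOC2 (0.734), MAGI3 (0.700) and SSFA2 (0.685) on A_72_P671850. The other overlapping probe of ZAR1L, at 0.848, ranked 2. On A_72_P452533 it was highest for FAM212B (0.701), SHOC2 (0.683), RNF144B (0.674), CFL2 (0.640) and GAL3ST1 (0.626). FAM212B averaged -2.79 in restricted high RFI pigs and -2.25 in high RFI pigs, against -1.70 in low RFI pigs.

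For C4H8orf37 on A_72_P525152, its own probes A_72_P107826 and A_72_P040846 ranked 1 and 2, with Spearman rho of 0.907 and 0.828, and 16 of the 20 most alike probes had no gene name. The 5 named genes most alike were STAT5A (0.692), ICAM2 (0.690), COQ3 (0.679), OLFML2B (0.669) and FAM89A (0.669). On A_72_P040846 they were RPL14 (0.747), NPW (0.657), RPL23 (0.656), C1QTNF7 (0.646) and FAM89A (0.637).

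With group means taken out, A_72_P040846 ranked 1 for A_72_P525152, at a Pearson r of 0.894, while A_72_P107826, at 0.691, ranked 16. For A_72_P040846, A_72_P107826 ranked only 449, at 0.513. The named genes FAM89A (0.781), MAP3K4 (0.724), ADAM15 (0.684), SAR1B (0.665) and ABHD17B (0.656) were most alike on A_72_P525152. On A_72_P040846 they were MAPK14 (0.718), RIDA (0.705), FAM89A (0.683), ADAM15 (0.672) and HSPA5 (0.662). FAM89A averaged 1.35 in restricted high RFI pigs and 1.27 in high RFI pigs, against 1.62 in low RFI pigs.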

How the data were processed

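Liver RNA of 24 pigs was hybridised to single-colour arrays, 1 per pig, 8 pigs in each of 3 groups taken from the labels; per the labels' protocols, 150 ng of RNA per pig was labelled with Cy3. The intensity values are the processed signal in the scanner output that the authors deposited, which per the file headers came from Agilent Feature Extraction 10.7.3.1 after background subtraction and detrending. Per the file headers, further deposited columns hold 0 or 1 flags for spots well above background, saturated or outlying. R 2.10.0 is named in the submitters' processing notes. A second deposited file, a log2 table of 27564 features, equalled log2 of the processed signal minus each column's median. It held the 3 probes of C4H8orf37 and none of ZAR1L, and its choice of features is not stated.

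Control spots (1417) and 1055 spots flagged as outliers were left out, the log2 signal was taken relative to its array's 75th percentile, and spots of a probe were averaged. Of 43603 probes, 12283 had 1 gene symbol, 38 several and 31282 none, by match to the RefSeq pig gene table (7371 by accession, 1501 by gene identifier, 3348 by symbol, 63 by synonym). Probes well above background on at least 6 of 8 arrays of a group (29665) were fitted together over the 3 groups with limma 3.58.1 in R 4.3.3, with Benjamini-Hochberg adjustment. Exact permutation tests were run in Python 3.11.15 with numpy 2.4.6. The limma fit and the permutation test were tested on simulated data. Array signals give no count; the number of arrays and, for dim spots, the signal over background limit the precision. The members, gene lists and tests were chosen with earlier results of these data known, and the comparisons of high and of restricted high with low RFI chose the 2 genes.

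Named genes are every probe of the 2 genes, neighbouring genes with a probe, list genes called in any comparison or else the 3 with the smallest unadjusted p in high minus low RFI, and the 5 named genes most alike to each gene's brightest probe and to its probe with the largest difference. The lists hold egg and oocyte genes, cytoplasmic mRNA repression, homologous recombination, BBSome, basal body and transition zone, intraflagellar transport, and markers of hepatocytes, cholangiocytes, stellate cells, endothelium, macrophages and lymphocytes, among others; some list results are not reported here. Alternatives were slide, scan day or pig number as a block, normexp background correction with an offset of 50, quantile normalization, only the groups compared, the deposited log2 table, no filter, and, chosen after seeing the data, leaving out each pig.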

Additional observations from a re-analysis of the deposited data

Results flagged for a closer look

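A single pig stood apart from the other 7 of its group in 3 of 48 groups of 8 pigs examined over the 6 probes of the 2 genes and the brightest probe of each neighbouring gene; chance flags about 1 in 20 groups. FRY was at -1.83 in high RFI pig 8, where the next pig was at -2.48. SDC2 was at 6.26 in restricted high RFI pig 3, where the next was at 5.97. NDUFAF6 was at -0.31 in high RFI pig 7, where the next was at -0.85. None of the 6 probes of ZAR1L and C4H8orf37 was among them.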

How the results depend on the processing

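ZAR1L (A_72_P671850) and C4H8orf37 (A_72_P525152) kept a negative difference for high minus low and restricted high minus low RFI under every alternative run. Normexp background correction, which adds the same offset to every spot, moved ZAR1L to -0.83 for high minus low RFI and to -0.996 for restricted high minus low RFI, and brought C4H8orf37 to -0.74 and -0.81. The deposited log2 table gave -1.01 and -1.08 for C4H8orf37 and could not be used for ZAR1L, which it does not hold. Over leaving out each pig in turn, ZAR1L ranged between -2.30 and -1.93 for high minus low, -0.50 and -0.27 for restricted high minus high, and -2.71 and -2.34 for restricted high minus low RFI. C4H8orf37 ranged between -1.12 and -0.94, -0.19 and 0.03, and -1.20 and -0.98; restricted high minus high RFI turned to 0.0273 without restricted high RFI pig 2. For restricted high minus high RFI the limma adjusted p over the processing alternatives lay between 0.773 and 0.998 for ZAR1L and 0.963 and 0.998 for C4H8orf37, and no setting called any probe. The probes called for high minus low RFI were 45 as reported, 5 with normexp and 26 with no filter. For restricted high minus low RFI they were 82 as reported, 51 with slide as a block, 14 with normexp, 32 with only the compared groups fitted and 41 with no filter. Deviations of the 24 same-numbered pairs correlated between -0.19 and 0.42, with a median of 0.03, and 8 were over 0.1. The value of 0.42 was that of restricted high and high RFI pig 7. Pairs with different numbers were not compared, so whether the pig numbers pair the pigs was not tested. With the pig number as a replicate block, the differences stayed -2.07, -0.41 and -2.48 for ZAR1L and -1.01, -0.08 and -1.09 for C4H8orf37, and 48, 0 and 98 probes were called in high minus low, restricted high minus high and restricted high minus low RFI. How dim ZAR1L is in the high RFI line limits its fold there, since most of those spots were not well above background.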
